A study of Homo sapiens with 12 samples.

Results

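MV4-11 and THP-1 are human acute myeloid leukaemia cell lines with monocytic features, and their transcript levels were compared here in control cells. The 3 MV4-11 shControl libraries were set against the 3 THP-1 shControl libraries, 6 of the 12 libraries of a series on silencing of CYTH4. All 6 carried a control short hairpin RNA (shControl), so neither line was unmanipulated. The other 6 libraries, 3 MV4-11 shCYTH4 and 3 THP-1 shCYTH4, carried a hairpin against CYTH4 and were used only to see whether a line difference returned in libraries the control comparison did not hold. Genes were taken when their FPKM, fragments per unit of transcript length and of sequencing depth, was at least 1 in at least 3 of the 6 control libraries, which gave 11534 of 34626 genes. Of these, 9203 reached that level in all 6 libraries. Another 381 reached it in all 3 MV4-11 and no THP-1 library, and 824 in all 3 THP-1 and no MV4-11 library; such genes could enter only through the line where they are high.

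As background, both lines arose from leukaemias with a rearranged KMT2A (MLL) gene. MV4-11 carries a KMT2A-AFF1 fusion and an internal tandem duplication of FLT3, which keeps that receptor tyrosine kinase active, and THP-1 carries a KMT2A-MLLT3 fusion and an activating NRAS mutation. KMT2A fusions are known for holding the HOXA genes and the cofactor MEIS1 active in blood precursors, and monocytic leukaemias keep parts of the monocyte programme: granule proteases, lysozyme, Fc receptors and pattern recognition receptors. No mutation, fusion or copy number was measured here. Each line is 1 cell line, and the labels do not say whether its 3 libraries came from separate cultures, so the tests see only library-to-library spread, part or all of which may be technical. Anything else that the libraries of a line share cannot be told apart from the line.

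The lines differed widely. Of the 11534 genes, 2982 (25.9%) were higher in MV4-11 and 3090 (26.8%) were lower at an adjusted p under 0.05 by edgeR's quasi-likelihood test with Benjamini-Hochberg adjustment, 52.6% in all. A log2 difference of at least 1 was met by 1186 higher genes (10.3%) and 1548 lower genes (13.4%), 23.7% in all. Every log2 value below is MV4-11 over THP-1, and a count of called members of a gene group has to be read against these shares. Library totals ran from 72546581 to 77782719 estimated counts. Genes with an FPKM of at least 1 numbered 10578 ± 292 in MV4-11 and 11250 ± 189 in THP-1 (SD, n = 3 each; exact permutation test, two-sided, p = 0.1, the smallest p that 3 against 3 allows). Mitochondrial genes took 7.30% ± 0.744 of counts in MV4-11 and 7.11% ± 0.773 in THP-1 (SD, n = 3 each; exact permutation p = 0.7). In the shCYTH4 libraries, which share no sample with the control comparison, 47.7% of the same genes were called between the lines, 23.3% higher and 24.5% lower; 22.2% were called with a log2 of at least 1 in size, 9.57% higher and 12.6% lower. Both comparisons called 4364 genes in 1 direction, 71.9% of the control calls and 79.3% of the shCYTH4 calls, and 21 genes in opposite directions. Of the 2734 control calls with a log2 of at least 1 in size, 2439 (89.2%) were called the same way in the shCYTH4 libraries and 4 the other way.

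The core myeloid transcription factors SPI1, CEBPA and IRF8 differed by less than 1.5-fold between the lines in the control libraries. SPI1, which encodes the myeloid master regulator PU.1, had 150, 159 and 138 FPKM in MV4-11, against 104, 127 and 119 FPKM in THP-1. Its libraries did not overlap and it was called higher in MV4-11 (log2 0.37, SE 0.14, adjusted p = 0.037). That call was lost without MV4-11 replicate 1 (log2 0.33, adjusted p = 0.059) or 2 (0.33, 0.13) and without THP-1 replicate 1 (0.27, 0.14) or 3 (0.40, 0.064), among 9 alternatives that lost it, and the shCYTH4 libraries gave -0.22 (adjusted p = 0.28). CEBPA, a factor of granulocyte and monocyte commitment, had 114, 114 and 95.8 FPKM in MV4-11 and 124, 157 and 128 FPKM in THP-1 and was not called (log2 -0.32, SE 0.15, adjusted p = 0.091), although 6 of 18 alternatives called it lower in MV4-11, among them limma on log2(FPKM + 1) (-0.33, 0.049), quantile normalization (-0.34, 0.022) and the fit without MV4-11 replicate 1 (-0.40, 0.022). IRF8, needed for monocytes and dendritic cells, was not called either (log2 -0.17, SE 0.12, adjusted p = 0.27). In the shCYTH4 libraries both CEBPA (log2 -0.80, adjusted p = 0.0032) and IRF8 (log2 -0.54, adjusted p = 0.010) were lower in MV4-11. Of 34 listed myeloid lineage factors 22 were tested, and 6 were higher, 4 lower and 12 not called, with a median log2 of -0.04, against 0.0037 over all genes tested. IRF4, a factor of lymphoid cells and of some dendritic cells and macrophages, stood apart at 6.13, 5.24 and 6.07 FPKM in MV4-11, against 0.0905, 0.0416 and 0.0494 FPKM in THP-1 (log2 6.59, SE 0.28). CEBPB, an inflammation-responsive C/EBP factor, was higher in MV4-11 (log2 1.35, SE 0.27), though the shCYTH4 libraries gave -0.59. KLF4, which drives monocyte differentiation, was lower in MV4-11 with 0.432, 0.83 and 0.725 FPKM, against 2.94, 2.58 and 4.48 FPKM in THP-1 (log2 -2.31, SE 0.28). GATA2, a stem and progenitor factor (log2 -2.02, SE 0.24), and BCL6, a transcriptional repressor (log2 -2.14, SE 0.23), were lower as well. GATA2 overlaps its antisense gene GATA2-AS1, so reads of both may mix. IRF4 entered the test through MV4-11 alone, and KLF4 and BCL6 through THP-1 alone, so IRF4, KLF4 and BCL6 had to differ.

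The HOXA cluster differed gene by gene. HOXA9, a central target of KMT2A fusions, had 14.9, 18.1 and 18.9 FPKM in MV4-11 and 25.3, 18.6 and 19 FPKM in THP-1 (log2 -0.26, SE 0.15, adjusted p = 0.15). Its neighbour HOXA10 was not called either (log2 -0.21, 95% interval -0.53 to 0.10). The tested HOXA genes on both sides of that pair were lower in MV4-11. Of these, HOXA5, HOXA7 and HOXA13 entered the test through THP-1 alone, so they had to differ. HOTAIRM1, the next tested gene beyond HOXA5, was not called (log2 0.40, SE 0.24, adjusted p = 0.19). HOXA7 had 0 counts in all 3 MV4-11 libraries and 2.58, 2.88 and 2.46 FPKM in THP-1, at least 41.3-fold lower in MV4-11 against a floor of 12 counts per library. HOXA5 averaged 0.0279 FPKM in MV4-11 and 1.53 FPKM in THP-1, and at the other end HOXA11 averaged 1.83 FPKM in MV4-11 and 8.95 FPKM in THP-1. HOXA13 had 0.0324, 0.0803 and 0.0483 FPKM in MV4-11, against 5.87, 4.6 and 5.5 FPKM in THP-1 (log2 -6.57, SE 0.28). HOXA11 overlaps its antisense gene, whose reads may be counted with it since the strand setting is not stated. MEIS1, the DNA-binding partner of HOXA9, ran the other way with 3.86, 4.36 and 5.23 FPKM in MV4-11, against 0.0715, 0.0677 and 0.114 FPKM in THP-1 (log2 5.72, SE 0.24). It entered the test through MV4-11 alone, so it too had to differ. PBX3, another HOX cofactor, was lower in MV4-11 (10.9 ± 1.05 FPKM) than in THP-1 (25.3 ± 4.99 FPKM; SD, n = 3 each; log2 -1.20, SE 0.14), and so was JMJD1C, a demethylase-family protein used by KMT2A leukaemias (log2 -2.09, SE 0.23). Of 36 listed HOX, MEIS and PBX genes 15 were tested, of which 4 were higher and 7 lower.

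**Figure D1:**
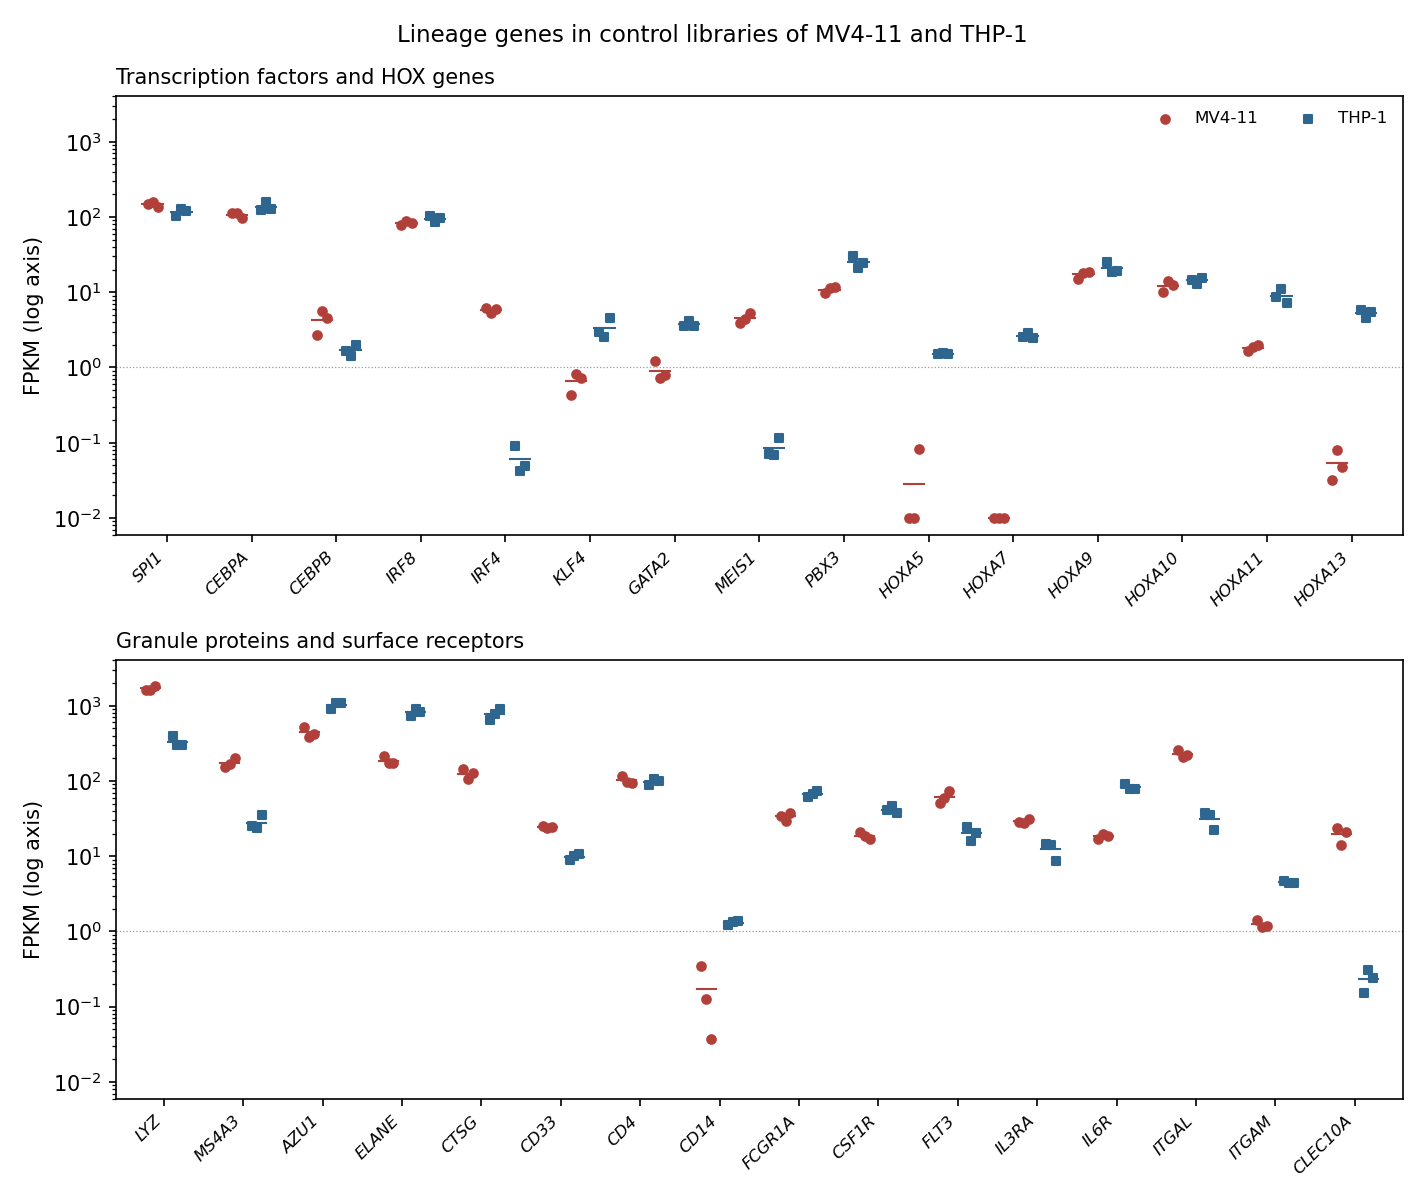
FPKM in each control library on a log axis, with 3 MV4-11 libraries (circles, left of each pair) and 3 THP-1 libraries (squares, right), and short lines at the means; values under 0.01 are drawn at 0.01. SPI1, CEBPA, IRF8, HOXA9 and CD4 lie side by side, while IRF4, MEIS1, HOXA7, HOXA13 and CLEC10A are near or under 0.3 FPKM in 1 line.

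Granule genes moved in opposite directions. LYZ, lysozyme, had 1619, 1646 and 1855 FPKM in MV4-11, against 392, 304 and 297 FPKM in THP-1 (log2 2.39, SE 0.14, adjusted p = 6.4e-09). MS4A3, a membrane protein of granulocyte and monocyte progenitors, had 153, 168 and 201 FPKM in MV4-11, against 24.9, 23.7 and 35 FPKM in THP-1 (log2 2.66, SE 0.17). The ribonuclease gene RNASE3 (log2 1.89, SE 0.22) and CST3, the protease inhibitor cystatin C (log2 1.49, SE 0.16), were higher in MV4-11 too. The primary granule genes ELANE, CTSG and AZU1 were lower. ELANE, neutrophil elastase, had 214, 171 and 172 FPKM in MV4-11 and 729, 914 and 816 FPKM in THP-1 (log2 -2.12, SE 0.16), and CTSG, cathepsin G, had 142, 106 and 128 FPKM in MV4-11 and 638, 782 and 901 FPKM in THP-1 (log2 -2.60, SE 0.17). AZU1, azurocidin, gave a log2 of -1.20 (SE 0.16) and RNASE2 gave -1.31 (SE 0.14). PRTN3, proteinase 3, the neighbour of AZU1 and ELANE, was not called at 783 ± 99.7 FPKM in MV4-11 and 731 ± 61 FPKM in THP-1 (SD, n = 3 each; log2 0.12, 95% interval -0.20 to 0.44); it was named after its values were seen. MPO, myeloperoxidase, went the other way from ELANE, CTSG and AZU1. It was low in both lines but called higher in MV4-11, at 3.49 FPKM, against 2.00 FPKM in THP-1 (log2 0.83, SE 0.23, adjusted p = 0.0085). In all, 7 of 16 tested granule genes were higher and 6 lower, and the shCYTH4 libraries called all 13 in the same directions.

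Monocyte and macrophage markers were mostly lower in MV4-11. Of 30 listed, 20 were tested, 4 were higher and 12 lower, with a median log2 of -1.06, and their libraries did not overlap between the lines in 17 cases, against 60.8% of all genes tested (30.1% higher and 30.6% lower); 4 entered the test through THP-1 alone. CD14, the lipopolysaccharide co-receptor, had 0.346, 0.128 and 0.0374 FPKM in MV4-11, against 1.23, 1.32 and 1.37 FPKM in THP-1 (log2 -2.87, SE 0.55), low in both lines. MNDA, a nuclear protein of myeloid cells, had 1.74, 2.18 and 2.91 FPKM in MV4-11 and 20.6, 13.9 and 20.4 FPKM in THP-1 (log2 -2.99, SE 0.21). CSF1R, the macrophage growth factor receptor, averaged 18.8 FPKM in MV4-11 and 41.6 FPKM in THP-1 (log2 -1.13, SE 0.15); it overlaps the pseudogene RPL7P1, whose reads may mix with its own. The Fc receptor genes FCGR1A (log2 -0.99, SE 0.14) and FCGR2A (log2 -1.46, SE 0.14) and FCER1G, the signalling chain of FCGR1A (log2 -1.79, SE 0.18), were lower. MNDA, FCGR1A, FCGR2A and FCER1G all lie on chromosome 1, where 620 of 1231 tested genes were lower. The part of position in their differences was not tested. CD33, a myeloid sialic acid lectin and antibody target, went the other way with 25.6, 23.5 and 24.5 FPKM in MV4-11 and 8.95, 9.92 and 10.8 FPKM in THP-1 (log2 1.33, SE 0.14). The scavenger receptor gene CD36 (log2 1.85, SE 0.21) and the inhibitory receptor gene LILRB1 (log2 2.09, SE 0.22) were also higher, and CD4, present on monocytes as well as T cells, averaged 104 FPKM in MV4-11 and 97.5 FPKM in THP-1 and was not called (log2 0.11, SE 0.15, adjusted p = 0.56). In bulk RNA, fewer cells that express a gene and less of its RNA per cell cannot be told apart.

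Markers of other lineages were largely missing. CD34 was at or under 0.00528 FPKM in every library of both lines, and KIT, a progenitor receptor, averaged 0.974 FPKM in MV4-11 and 0.593 FPKM in THP-1; neither was tested. None of 9 megakaryocyte markers, 2 of 14 B cell markers, 2 of 13 T and NK markers, 2 of 12 erythroid and mast cell markers and 2 of 14 epithelial and fibroblast markers passed the filter. Of 18 dendritic cell markers 7 were tested, 5 higher and 1 lower. The 2 tested B cell markers went opposite ways. IGLL1, a surrogate light chain of B precursors, had 6.8, 5.44 and 5.63 FPKM in MV4-11, against 0, 0.0553 and 0.104 FPKM in THP-1 (log2 6.61, SE 0.52). BANK1 was lower, averaging 0.186 FPKM in MV4-11 and 1.47 FPKM in THP-1 (log2 -2.95, SE 0.37). Each entered the test through 1 line alone, so both had to differ. IGKC, the constant segment of the kappa light chain, had 31.9, 36.5 and 30.4 FPKM in MV4-11, against 0.359, 0 and 0.37 FPKM in THP-1 (log2 7.06, SE 0.64). The kappa joining segment IGKJ1 behaved alike (log2 6.65, SE 0.53), and both are among the 8 genes with the largest differences upward. IGKJ1 is very short, so its FPKM can be high on few counts. In the MV4-11 shCYTH4 libraries IGKC averaged 8.13 FPKM, against 32.9 FPKM in shControl, and IGKJ1 12.9 FPKM, against 47.4 FPKM. CLEC10A, a lectin of dendritic cells and macrophages, had 24, 14.2 and 21 FPKM in MV4-11, against 0.153, 0.307 and 0.24 FPKM in THP-1 (log2 6.38, SE 0.31). It entered the test through MV4-11 alone, so it had to differ. CD209, the 1 dendritic cell marker called lower, averaged 2.61 FPKM in MV4-11 and 11.6 FPKM in THP-1 (log2 -2.13, SE 0.31). NCAM1 (CD56), an NK marker also seen on leukaemic monocytes, was lower in MV4-11 at 0.0842 ± 0.0352 FPKM, against 1.92 ± 0.150 FPKM in THP-1 (SD, n = 3 each), with a log2 of -4.43 (SE 0.30). NCAM1 entered the test through THP-1 alone, so it had to differ. The other tested T and NK marker was called higher in MV4-11, with a log2 under 1. The highest means in that list were 28.3 FPKM in MV4-11 and 16.5 FPKM in THP-1. FCER1A, the IgE receptor chain, averaged 2.75 FPKM in MV4-11 and 0.118 FPKM in THP-1 (log2 4.55, SE 1.29), but that call was lost without any 1 of the MV4-11 replicates (adjusted p = 0.11, 0.12 and 0.11 without replicates 1, 2 and 3) or without THP-1 replicate 2 (0.052).

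Several growth factor receptors known from leukaemia were higher in MV4-11. FLT3 had 50.3, 59.9 and 74.1 FPKM in MV4-11, against 24.5, 16 and 20.5 FPKM in THP-1 (log2 1.61, SE 0.16, adjusted p = 1.4e-06). Its lowest MV4-11 library stood above the highest THP-1 library. IL3RA, the interleukin-3 receptor chain CD123, had 28.6, 27.9 and 31.3 FPKM in MV4-11, against 14.4, 14 and 8.68 FPKM in THP-1 (log2 1.26, SE 0.19). IL1RAP, a co-receptor for interleukin-1 that is found on leukaemic stem cells (log2 2.20, SE 0.19), and TGFBR2, the type II TGF-beta receptor (log2 1.09, SE 0.16), were higher too. IL6R was lower at 17, 19.5 and 18.4 FPKM in MV4-11, against 91.1, 78.2 and 77.4 FPKM in THP-1 (log2 -2.15, SE 0.13), and IL10RB, a shared chain of the interleukin-10 receptor family, gave a log2 of -1.24 (SE 0.15). Of 25 tested receptors, 12 were higher and 7 lower.

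Transcripts known to follow FLT3 and STAT5 signalling were higher in MV4-11 in 12 of 19 tested cases and lower in 2, with a median log2 of 0.80. Of the 19, 2 entered the test through MV4-11 alone and none through THP-1 alone, so those 2 had to differ. PIM1, a survival kinase, had 71.4, 61.7 and 68.3 FPKM in MV4-11, against 3.61, 3.81 and 5.18 FPKM in THP-1 (log2 4.02, SE 0.18, adjusted p = 3.4e-10). SOCS2, a STAT5 feedback inhibitor, averaged 4.70 FPKM in MV4-11 and 0.546 FPKM in THP-1 (log2 3.12, SE 0.19), and CISH, of the same family, averaged 10.2 FPKM in MV4-11 and 1.97 FPKM in THP-1 (log2 2.39, SE 0.22); CISH overlaps MAPKAPK3, so reads of both may mix. MYC, the growth transcription factor, had 117, 110 and 108 FPKM in MV4-11, against 41.4, 42.6 and 48 FPKM in THP-1 (log2 1.37, SE 0.13). CCND2, cyclin D2, averaged 4.75 FPKM in MV4-11 and 0.0742 FPKM in THP-1 (log2 5.99). MCL1, the survival protein of the BCL2 family, was lower, at 21.4, 30.2 and 31.7 FPKM in MV4-11 and 65.7, 44.7 and 53.8 FPKM in THP-1 (log2 -0.96, SE 0.16). Of the 12 higher genes, 10 were also higher in the shCYTH4 libraries. The STAT motif TTCNNNGAA, which reads the same on both strands, was searched in RefSeq promoters (GRCh38.p14, 300 bases around the transcription start). It was present in 1 of 13 promoters of this list that could be matched, against 7.88% of all 27305 promoters. The one was CISH, with 4 matches, shown here in capitals on the minus strand at chr3:50611725-50612024, as the listed gene whose promoter carries the letters.
CISH: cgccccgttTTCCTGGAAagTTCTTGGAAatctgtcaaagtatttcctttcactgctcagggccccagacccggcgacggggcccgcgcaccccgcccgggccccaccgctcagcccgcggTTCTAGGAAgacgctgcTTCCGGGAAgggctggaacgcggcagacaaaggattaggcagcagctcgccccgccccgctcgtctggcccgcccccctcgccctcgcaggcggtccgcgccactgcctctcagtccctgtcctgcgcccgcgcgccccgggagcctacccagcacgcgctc

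Other surface receptors differed in both directions. Of 20 tested chemokine and chemoattractant receptors, 6 were higher and 7 lower. CXCR4, the bone marrow homing receptor, had 42.8, 43.2 and 41.9 FPKM in MV4-11 and 45.9, 44.5 and 48.4 FPKM in THP-1 and was not called (log2 -0.10, SE 0.12, adjusted p = 0.52). PTGER2 (log2 4.13, SE 0.55) and PTGER4 (log2 -1.23, SE 0.15), receptors for prostaglandin E2 that both raise cyclic AMP, went opposite ways. PTGER2 had 3.16, 3.6 and 4.05 FPKM in MV4-11, against 0.316, 0.261 and 0.0379 FPKM in THP-1. PTGER4 had 17.5, 19.7 and 21.8 FPKM in MV4-11, against 45.8, 38.2 and 55.9 FPKM in THP-1. The receptor for platelet-activating factor, PTAFR (log2 3.15, SE 0.25), and the ATP-gated channel gene P2RX1 (log2 1.37, SE 0.16) were higher, and the chemokine receptor genes CXCR3 (log2 -1.24, SE 0.21) and CX3CR1 (log2 -1.01, SE 0.19) lower.

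Among integrins, the leukocyte integrin alpha chains diverged. ITGAL, the alpha chain of LFA-1, had 258, 211 and 220 FPKM in MV4-11, against 37.4, 35 and 22.3 FPKM in THP-1 (log2 2.89, SE 0.20, adjusted p = 2.9e-08). ITGAM, the alpha chain CD11b of Mac-1, had 1.43, 1.15 and 1.19 FPKM in MV4-11, against 4.74, 4.34 and 4.41 FPKM in THP-1 (log2 -1.81, SE 0.18). Both chains pair with ITGB2, which averaged 56.6 FPKM in MV4-11 and 108 FPKM in THP-1 (log2 -0.91); ITGB2 was named after its values were seen. The LFA-1 ligand genes ICAM1 (log2 2.87, SE 0.18) and ICAM4 (log2 3.08, SE 0.31) and the hyaluronan receptor gene CD44 (log2 1.53, SE 0.14) were higher in MV4-11, and the adhesion genes PECAM1 (log2 -1.76, SE 0.13) and ALCAM (log2 -2.34, SE 0.20) lower. Over the 29 tested integrin and adhesion genes, 7 were higher and 13 lower.

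Immune receptors of the Fc, LILR and SIGLEC type numbered 33 tested, 13 higher and 9 lower. HCST, the adaptor DAP10 (log2 1.62, SE 0.18), and SIRPA, the receptor for CD47 (log2 1.42, SE 0.13), were higher. SIRPA had 59.3, 57.4 and 51.9 FPKM in MV4-11, against 21.5, 20.7 and 21.6 FPKM in THP-1. TREM2, a lipid-sensing receptor, gave a log2 of -1.0 (SE 0.21) and FCGRT, the neonatal Fc receptor, -1.53 (SE 0.29). Reads of LILR genes may be shared between near-identical copies. Of 17 tested pattern recognition receptors, 4 were higher and 4 lower. CD180, a Toll-like protein, had 14.5, 15.7 and 17.5 FPKM in MV4-11, against 1.64, 1.13 and 1.64 FPKM in THP-1 (log2 3.45, SE 0.17), and NOD2, a sensor of bacterial wall fragments, gave 2.01 (SE 0.21). TLR2, the lipoprotein receptor, was not called (log2 0.21, SE 0.16, adjusted p = 0.27). TLR4, the lipopolysaccharide receptor, was not called either (log2 -0.40, SE 0.25, adjusted p = 0.19), but was lower without MV4-11 replicate 3 (-0.65, adjusted p = 0.041) or THP-1 replicate 2 (-0.61, 0.042), whereas in the shCYTH4 libraries it was higher in MV4-11 (log2 0.81, adjusted p = 0.022).

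Antigen presentation genes did not move as a block. HLA-DRA, the alpha chain of HLA-DR, had 41.5, 68.1 and 39.9 FPKM in MV4-11, against 8.08, 7.24 and 5.85 FPKM in THP-1 (log2 2.84, SE 0.22). CIITA, the class II transactivator, had 1.48, 1.85 and 1.41 FPKM in MV4-11, against 0.235, 0.221 and 0.211 FPKM in THP-1 (log2 2.84, SE 0.18); it overlaps DEXI, so reads of both may mix. CD74, the chaperone of class II molecules, was higher as well (log2 1.32, SE 0.14). HLA-DRB1 and HLA-DRB5, which encode beta chains that pair with HLA-DRA, were lower, with HLA-DRB1 at 7.41, 8.9 and 6.83 FPKM in MV4-11 and 27.3, 34.5 and 20.9 FPKM in THP-1 (log2 -1.82, SE 0.20). HLA genes are highly variable and near-identical to each other, so reads of an allele unlike the annotated one may be lost or shared, and the values of single HLA genes are uncertain between lines. CTSS, the protease that trims the class II chaperone, was lower (log2 -2.57, SE 0.15). Of class I genes, HLA-B (log2 1.20, SE 0.13), HLA-C (log2 1.54, SE 0.13) and HLA-E (log2 1.04, SE 0.15) were higher under the same limit. B2M, their shared light chain, was lower at 208, 213 and 239 FPKM in MV4-11, against 346, 284 and 282 FPKM in THP-1 (log2 -0.45, SE 0.12). The peptide-loading genes TAP1 (log2 -1.15, SE 0.17), TAPBP (log2 -1.03, SE 0.16), ERAP1 (log2 -1.86, SE 0.17) and PSMB9, an immunoproteasome subunit (log2 -1.75, SE 0.23), were lower. PSMB9 overlaps TAP1.

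Among the gene lists with at least 12 tested members, interferon-stimulated genes had the largest share lower in MV4-11. Interferons signal through the kinases JAK1 and TYK2 to a complex of STAT proteins and IRF9, which binds interferon-stimulated response elements in the promoters of antiviral genes. Of 52 listed genes 38 were tested, of which 32 were lower in MV4-11, 4 higher and 2 not called; the median log2 was -1.30. Of the 38, 15 entered the test through THP-1 alone and none through MV4-11 alone, so those 15 had to differ. IFI27 had 0.233, 0.305 and 0.403 FPKM in MV4-11, against 42.1, 46 and 86.9 FPKM in THP-1 (log2 -7.47, SE 0.39, adjusted p = 1.0e-06). IFI6, an antiviral membrane protein, had 5.07, 3.01 and 4.08 FPKM in MV4-11, against 39.5, 42.4 and 83 FPKM in THP-1 (log2 -3.73, SE 0.35). For both, THP-1 replicate 3 was the highest library, and every MV4-11 library was below every THP-1 library. ADAR, an RNA-editing enzyme, had 24.9, 26.2 and 24.8 FPKM in MV4-11, against 56.7, 52.3 and 53.5 FPKM in THP-1 (log2 -1.08, SE 0.12).

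Genes of the same class went in opposite directions within 1 family. IFITM3, a membrane protein that blocks virus entry, had 3.83, 2.51 and 3.68 FPKM in MV4-11, against 21.7, 25.7 and 30.9 FPKM in THP-1 (log2 -2.94, SE 0.21). Its relatives IFITM1 and IFITM2 were higher, with IFITM1 at 102, 75.3 and 95.7 FPKM in MV4-11 and 26.4, 27.6 and 31.6 FPKM in THP-1 (log2 1.70, SE 0.16) and IFITM2 at 153, 151 and 138 FPKM in MV4-11 and 55.5, 61 and 49.9 FPKM in THP-1 (log2 1.43, SE 0.14). These 3 genes are much alike in sequence, so reads may be shared between them. TRIM22, a ubiquitin ligase of the antiviral response, was higher too (log2 2.31, SE 0.21). ISG15, the ubiquitin-like modifier, had 11.7, 10.2 and 8.58 FPKM in MV4-11 and 12.3, 18 and 19 FPKM in THP-1 (log2 -0.68, SE 0.23, adjusted p = 0.021), a call lost without MV4-11 replicate 3 (-0.55, 0.078) or THP-1 replicate 2 (-0.58, 0.073) or 3 (-0.55, 0.10). Of the 32 lower genes, 29 were called lower in the shCYTH4 libraries too, and of the 4 higher genes 3 were called higher there.

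The regulators of the response, a list that shares members with the one above, were also lower in part, with 6 of 21 tested higher and 8 lower. IRF7, the amplifier of interferon production (log2 -1.27, SE 0.20), IRF9 (log2 -1.79, SE 0.27), the kinase gene JAK2 (log2 -1.57, SE 0.21) and STING1, the adaptor of cytosolic DNA sensing, were lower. STING1 had 30.4, 26 and 25.5 FPKM in MV4-11, against 80, 89.3 and 74.3 FPKM in THP-1 (log2 -1.55, SE 0.15). IRF9 overlaps another gene, so its reads may be mixed. SOCS3, a feedback inhibitor of cytokine signalling, was higher (log2 1.53, SE 0.24).

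The promoters of 3 of these genes show the response element in both directions of change. The motif, GAAA and again GAAA after any 2 bases, was searched on both strands, overlapping matches included, in the RefSeq promoters of GRCh38.p14; this search was added after the values were seen. It was found in 26 of 39 promoters of the listed genes that could be matched, in 14 of the 25 among those lower in MV4-11 and in both of the 2 among those higher. Of all 27305 promoters 3.65% held it, and of the 8452 promoters of tested genes 2.89%. Capitals mark the matches, which are a description of letters and not of binding. IFI27 (chr14:94110486-94110785, plus strand) and IFI6 (chr1:27672143-27672442, minus strand) are shown as genes that were lower, and IFITM1 (chr11:313790-314089, plus strand) as one that was higher.
IFI27: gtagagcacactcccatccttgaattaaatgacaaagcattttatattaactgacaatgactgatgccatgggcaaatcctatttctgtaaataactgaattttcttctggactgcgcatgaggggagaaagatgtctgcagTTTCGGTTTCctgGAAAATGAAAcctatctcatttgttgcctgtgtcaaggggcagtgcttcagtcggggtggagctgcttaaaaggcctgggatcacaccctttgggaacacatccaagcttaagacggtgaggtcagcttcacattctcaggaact
IFI6: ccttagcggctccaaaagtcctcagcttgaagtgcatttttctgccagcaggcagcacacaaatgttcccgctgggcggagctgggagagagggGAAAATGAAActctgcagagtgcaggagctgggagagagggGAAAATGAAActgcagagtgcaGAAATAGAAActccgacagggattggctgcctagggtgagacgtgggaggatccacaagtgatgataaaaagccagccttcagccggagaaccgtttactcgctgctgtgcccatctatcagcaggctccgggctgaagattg
IFITM1: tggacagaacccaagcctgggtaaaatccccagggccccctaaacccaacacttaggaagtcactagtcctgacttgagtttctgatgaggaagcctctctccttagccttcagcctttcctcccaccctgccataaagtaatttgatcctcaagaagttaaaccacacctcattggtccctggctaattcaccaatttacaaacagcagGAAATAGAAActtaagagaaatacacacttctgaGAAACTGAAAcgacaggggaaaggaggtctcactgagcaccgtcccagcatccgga
IFI27 held 2 matches, IFI6 3 and IFITM1 2. These 3 were picked among genes whose promoters hold the motif, so their match counts cannot show whether it differs between lower and higher genes.

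**Figure D2:**
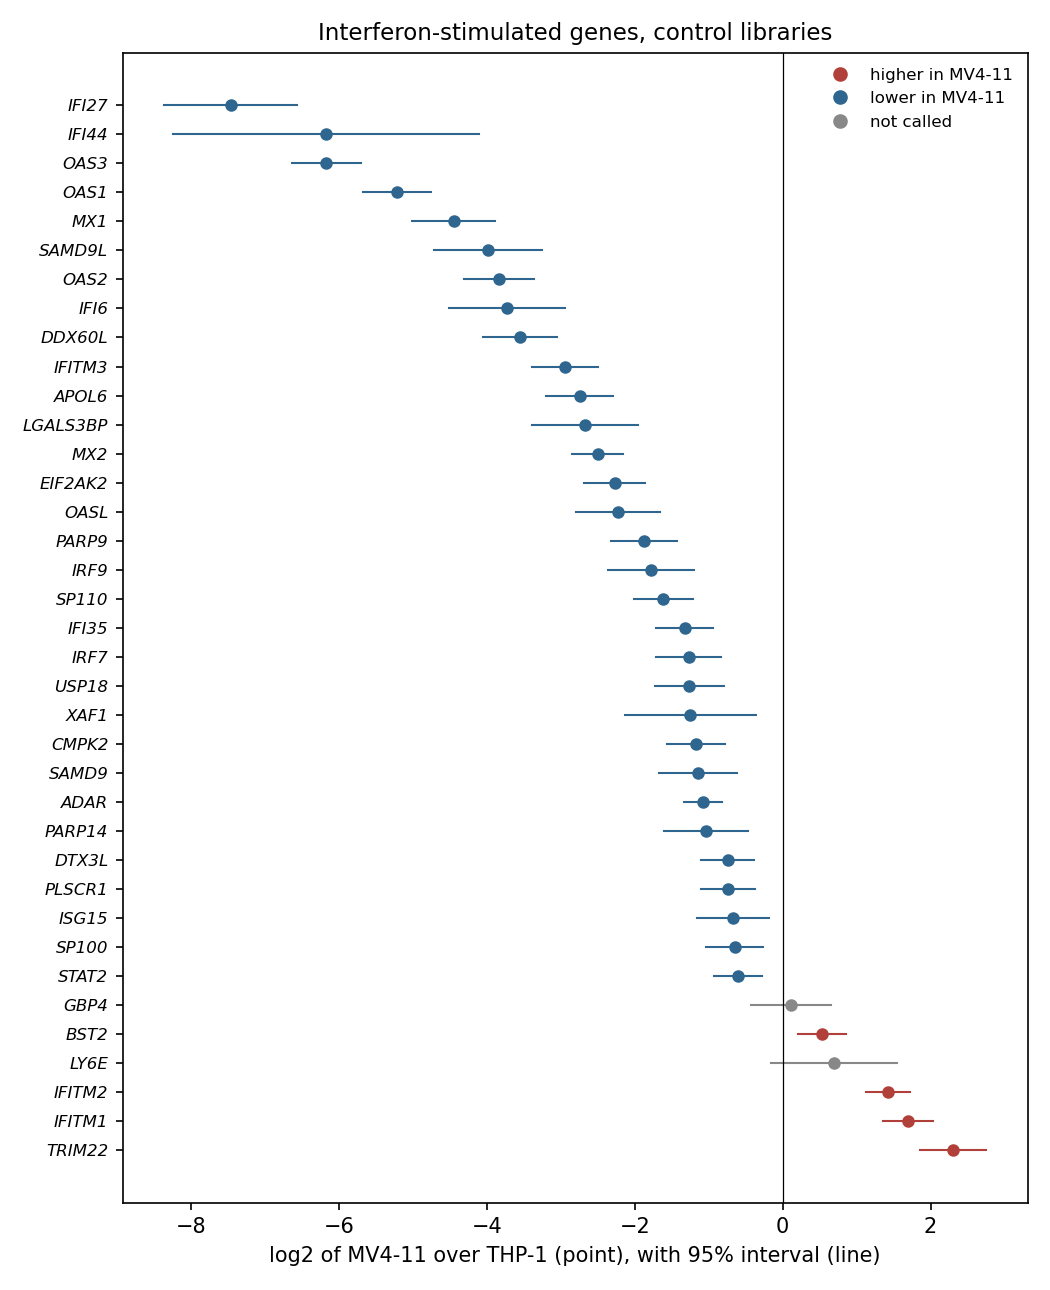
Fitted log2 of MV4-11 over THP-1 with its 95% interval for 37 of the 38 tested interferon-stimulated genes, ordered from IFI27 at the top to TRIM22 at the bottom. 31 of those drawn lie to the left of 0, lower in MV4-11, and BST2, IFITM2, IFITM1 and TRIM22 lie to the right; GBP4 and LY6E were not called.

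NF-kB and inflammatory genes were higher in MV4-11 in 14 of 24 tested cases and lower in 5, with a median log2 of 0.79; 6 entered through MV4-11 alone. TNF, the inflammatory cytokine, had 20.7, 18.7 and 20 FPKM in MV4-11, against 8.2, 10.1 and 5.1 FPKM in THP-1 (log2 1.36, SE 0.23). CD83, an activation marker, averaged 6.86 FPKM in MV4-11 and 1.83 FPKM in THP-1 (log2 1.92, SE 0.21). The NF-kB feedback inhibitor gene TNFAIP3 was higher (log2 1.11, SE 0.18), and CCL22, a chemokine for T cells, was lower with 0.0841, 0.0714 and 0.0439 FPKM in MV4-11, against 1.48, 1.83 and 1.59 FPKM in THP-1 (log2 -4.56, SE 0.33). The direction of this group did not return evenly. Of the 14 higher genes, 7 were called higher in the shCYTH4 libraries and 4 were called lower there, the NF-kB subunits NFKB2 (log2 0.46 in shControl and -0.90 in shCYTH4 libraries) and RELB (0.81 and -0.44), the inhibitor gene NFKBIZ (1.11 and -1.40) and the chemokine gene CXCL10 (3.92 and -6.25).

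Tumour suppressor loci held some of the sharpest differences. CDKN2A, which encodes the cell cycle inhibitor p16 (ENSG00000147889, chromosome 9, 21967752 to 21994873 in the file's coordinates, build not stated), had 20.4, 20.3 and 20.8 FPKM in MV4-11, against 0.0902, 0.0417 and 0.111 FPKM in THP-1 (log2 7.88, SE 0.26, adjusted p = 4.0e-11). MTAP, the neighbouring methionine salvage enzyme, had 2.42, 2.69 and 3.13 FPKM in MV4-11, against 0.0225, 0.0204 and 0.0276 FPKM in THP-1 (log2 6.81, SE 0.23). KLHL9, an adaptor of a ubiquitin ligase, had 2.48, 4.47 and 4.16 FPKM in MV4-11, against 0.0889, 0.0299 and 0.0514 FPKM in THP-1 (log2 6.03, SE 0.35). CDKN2B, the inhibitor p15 next to CDKN2A, stayed under the filter at 0.304, 0.41 and 0.344 FPKM in MV4-11, against 0.0253, 0 and 0.00615 FPKM in THP-1. CDKN2A, MTAP and KLHL9 follow each other among the tested genes of the chromosome. All 3 entered the test through MV4-11 alone, so they had to differ. The next tested genes on either side were present in both lines: HACD4, a fatty acid elongation enzyme, was lower in MV4-11 (log2 -1.17, SE 0.20), and FOCAD (4.84 FPKM in MV4-11 and 5.04 FPKM in THP-1), TUSC1 (log2 -0.23) and CAAP1 (6.47 and 6.63 FPKM) were not called.

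CDKN2C, the inhibitor p18, was lower at 14.3, 15.5 and 14.7 FPKM in MV4-11, against 106, 119 and 85 FPKM in THP-1 (log2 -2.78, SE 0.16). FAT1, an atypical cadherin, had at most 0.0941 FPKM in MV4-11, against 8.31, 5.47 and 8.08 FPKM in THP-1 (log2 -6.66, SE 0.27). FAT1 entered the test through THP-1 alone, so it had to differ. RB1, the retinoblastoma gene, was not called (log2 -0.46, SE 0.21, adjusted p = 0.075), though it was without THP-1 replicate 3 (-0.59, 0.049). Of 52 tested suppressors 12 were higher and 15 lower, near the shares of all genes.

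Single genes with roles in cell cycle arrest, apoptosis and DNA repair follow, with no count over a group. EDA2R, a death receptor family member, had 2.98, 3.89 and 3.74 FPKM in MV4-11 and 0 counts in all 3 THP-1 libraries, at least 84.8-fold higher in MV4-11. CDKN1A, the cell cycle inhibitor p21, had 48, 54.2 and 42.9 FPKM in MV4-11, against 15.8, 18.9 and 9.9 FPKM in THP-1 (log2 1.72, SE 0.22). Its difference was smaller in the shCYTH4 libraries, with means of 42.0 FPKM in MV4-11 and 29.0 FPKM in THP-1 (log2 0.58, SE 0.14). BAX, an effector of mitochondrial apoptosis, had 81.7, 66.6 and 68.7 FPKM in MV4-11, against 19.5, 22.3 and 20.1 FPKM in THP-1 (log2 1.83, SE 0.15). PHLDA3, an inhibitor of AKT (log2 3.29), TIGAR, a regulator of glycolysis (3.05), the death receptor gene TNFRSF10B (2.16) and the DNA repair genes DDB2 (1.43) and XPC (1.34) were higher and were named after their values were seen; TRIAP1 gave 1.37 (SE 0.15) by the rule. MDM2, a ubiquitin ligase, was not called (log2 0.48, SE 0.20, adjusted p = 0.061) but was higher without MV4-11 replicate 1 (0.67, 0.00018) or THP-1 replicate 1 (0.68, 0.021); it gave 0.04 in the shCYTH4 libraries, and it overlaps CPM, so reads of both may mix. SESN2, a stress-response gene, was lower (log2 -1.15, SE 0.16), and gave 0.46 in the shCYTH4 libraries.

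**Figure D3:**
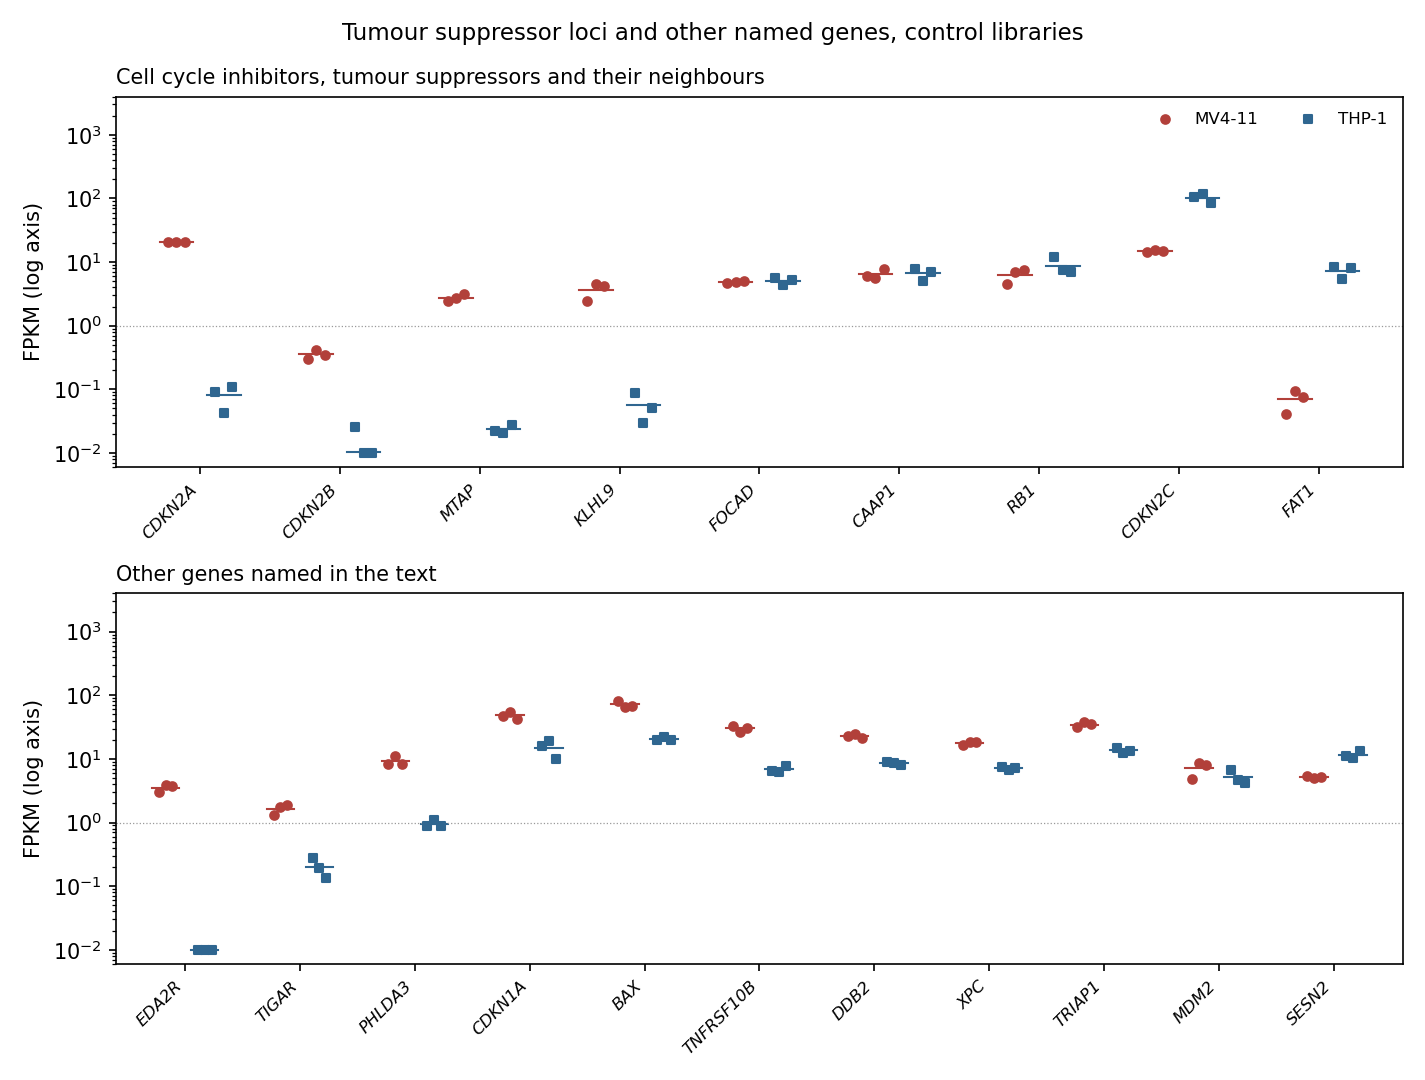
FPKM in each control library on a log axis, MV4-11 as circles on the left and THP-1 as squares on the right of each pair, with short lines at the means; values under 0.01 are drawn at 0.01. CDKN2A, MTAP and KLHL9 are near 0 in THP-1 while FOCAD and CAAP1 lie level, and in the lower panel EDA2R is at 0 in THP-1 and MDM2 overlaps.

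Genes of RAS signalling and its ERK feedback were mixed, with 10 of 29 tested higher and 9 lower. DUSP6, a phosphatase that ERK induces, had 9.88, 14.2 and 13.6 FPKM in MV4-11, against 5.94, 4.9 and 4.2 FPKM in THP-1 (log2 1.34, SE 0.17), whereas SPRY2, another feedback inhibitor, had 3.72, 3.87 and 3.86 FPKM in MV4-11, against 9.87, 9.21 and 9.82 FPKM in THP-1 (log2 -1.32, SE 0.15). NRAS, the gene mutated in THP-1, was lower (log2 -0.97). Among BCL2 family genes, 6 of 24 were higher and 8 lower. BCL2L10, a member of limited tissue range, had 8.74, 12.1 and 9.69 FPKM in MV4-11, against 0.191, 0.0565 and 0.163 FPKM in THP-1 (log2 6.20, SE 0.35). BMF, a pro-death member, was higher (log2 1.92, SE 0.17) and CASP8, the initiator caspase of death receptors, lower (log2 -1.14, SE 0.17). BCL2 itself was lower at 6.85, 8.17 and 9.38 FPKM in MV4-11, against 12.3, 9.8 and 11.9 FPKM in THP-1 (log2 -0.46, SE 0.13, adjusted p = 0.010), a call lost without THP-1 replicate 3 (-0.41, 0.052).

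Proliferation genes had medians near 0. Of 30 S phase genes 6 were higher and 6 lower, and of 24 mitosis genes 7 were higher and 2 lower, with median log2 values of 0.06 and 0.02. Single members still differed. PCNA, the replication clamp, had 251, 277 and 281 FPKM in MV4-11, against 94.1, 68.7 and 108 FPKM in THP-1 (log2 1.60, SE 0.15), while MCM3, a subunit of the replicative helicase, gave -1.22 (SE 0.12). CDC20, which activates the anaphase complex, had 98.9, 101 and 87.9 FPKM in MV4-11, against 357, 452 and 308 FPKM in THP-1 (log2 -1.94, SE 0.17). AURKB, a mitotic kinase, was higher (log2 1.67, SE 0.15).

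In metabolism, glycolytic genes were higher in 12 of 28 tested cases and lower in 7, with a median log2 of 0.35. HK2, the inducible hexokinase, had 16.7, 16.2 and 18.2 FPKM in MV4-11, against 2.92, 2.52 and 3.1 FPKM in THP-1 (log2 2.60, SE 0.14, adjusted p = 3.4e-09), and HK3, the myeloid hexokinase, had 4.48, 3.3 and 3.75 FPKM in MV4-11, against 8.77, 9.9 and 6.49 FPKM in THP-1 (log2 -1.10, SE 0.21). GAPDH, often used as a reference transcript, had 2185, 2108 and 1956 FPKM in MV4-11, against 841, 980 and 850 FPKM in THP-1 (log2 1.24, SE 0.14). TPI1 (log2 1.36, SE 0.14) and GPI (1.49, SE 0.14), the triose and glucose phosphate isomerases, were higher too, and PFKFB4, a regulator of fructose phosphorylation, was not called (0.43, SE 0.23, adjusted p = 0.13).

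Nuclear genes of the respiratory chain were higher in 20 of 39 tested cases and lower in 1, with a median log2 of 0.36. UQCRFS1, the iron-sulphur subunit of complex III (log2 1.26, SE 0.14), and NDUFA9, of complex I (log2 1.44, SE 0.15), were the only ones with a log2 of at least 1. Of the 13 mitochondrially encoded transcripts 2 were higher and 11 were not called. Genes of the tricarboxylic acid cycle were higher in 16 of 31 cases and lower in 4, with a median of 0.35. IDH3B, a subunit of the mitochondrial NAD-dependent isocitrate dehydrogenase, averaged 53.6 FPKM in MV4-11 and 22.0 FPKM in THP-1 (log2 1.30, SE 0.13). IDH1, the cytosolic enzyme, gave 0.54 (SE 0.15), and IDH2 gave 0.40 (SE 0.14, adjusted p = 0.027), a call lost without MV4-11 replicate 1 (0.32, 0.065) or 2 (0.39, 0.075) and without THP-1 replicate 1 (0.37, 0.080) or 3 (0.34, 0.094). ME1, cytosolic malic enzyme, had 0, 0.0891 and 0.196 FPKM in MV4-11, against 3.73, 3.34 and 4.07 FPKM in THP-1 (log2 -5.25, SE 0.99), a call lost without MV4-11 replicate 2 (-5.21, 0.062).

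Serine and one-carbon genes were higher in 13 of 32 cases and lower in 7. PHGDH, the first enzyme of serine synthesis, had 11.5, 4.52 and 9.93 FPKM in MV4-11, against 31, 32.6 and 33 FPKM in THP-1 (log2 -1.87, SE 0.35), and CBS, of transsulphuration, gave -2.38 (SE 0.30). In the shCYTH4 libraries only 1 of the 7 lower genes was called lower, and PHGDH gave 0.15 there. ASS1, argininosuccinate synthase, was not called (log2 0.22, SE 0.27, adjusted p = 0.52), with MV4-11 replicate 2 lowest at 31.9 FPKM; without that library it was higher (0.48, 0.042).

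Nucleotide genes gave 15 higher and 11 lower of 36. TKTL1, a transketolase-like protein, had 0.149, 0.336 and 0.419 FPKM in MV4-11, against 55, 62.8 and 39.4 FPKM in THP-1 (log2 -7.42, SE 0.36), while TKT, the main transketolase, was higher (log2 1.09, SE 0.16). BST1, a surface enzyme that makes cyclic ADP-ribose (log2 -2.23, SE 0.16), and CTPS1, CTP synthase (log2 -1.73, SE 0.13), were lower. Sterol and fatty acid genes were higher in 2 of 33 cases and lower in 10, with a median of -0.21. In the shCYTH4 libraries the median of this list was 0.31, and 3 of the 10 lower and 2 of the 2 higher genes were called the same way. HMGCS1, an early enzyme of sterol synthesis, averaged 4.56 FPKM in MV4-11 and 15.2 FPKM in THP-1 (log2 -1.73, SE 0.22). ALOX12, the 12-lipoxygenase, had 26.3, 19 and 23.6 FPKM in MV4-11, against 0.991, 0.725 and 0.932 FPKM in THP-1 (log2 4.72, SE 0.21). LTC4S, leukotriene C4 synthase, was higher (log2 2.90, SE 0.30), LTA4H, which makes leukotriene B4, was lower (log2 -1.61, SE 0.17), and ALOX5, the 5-lipoxygenase that feeds both, averaged 0.0372 FPKM in MV4-11 and 2.57 FPKM in THP-1 (log2 -6.04); ALOX5 was named after its values were seen. Over the 29 tested lipid genes 9 were higher and 11 lower.

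Redox and iron genes were higher in 19 of 40 cases and lower in 10. MT1G, a metallothionein, had 70.4, 62.6 and 72.3 FPKM in MV4-11, against 5.95, 6.39 and 4.04 FPKM in THP-1 (log2 3.66, SE 0.21), within a family of near-identical genes. GSTM1, a glutathione transferase that many people lack, had 0.0979, 0.196 and 0.327 FPKM in MV4-11, against 30.9, 36.1 and 26 FPKM in THP-1 (log2 -7.18, SE 0.33), and its neighbour GSTM3 was lower too (log2 -5.72, SE 0.27). FTH1, ferritin heavy chain, had 363, 617 and 517 FPKM in MV4-11, against 184, 215 and 327 FPKM in THP-1 (log2 1.05, SE 0.23), and -0.41 in the shCYTH4 libraries. CYTH4, the target of the hairpin in the other libraries, was lower in MV4-11 at 20.9, 16 and 18.1 FPKM, against 25.7, 32.2 and 21 FPKM in THP-1 (log2 -0.50, SE 0.18, adjusted p = 0.027), a call lost without MV4-11 replicate 2 (-0.41, 0.11) or 3 (-0.47, 0.065) or THP-1 replicate 2 (-0.30, 0.13).

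**Figure D4:**
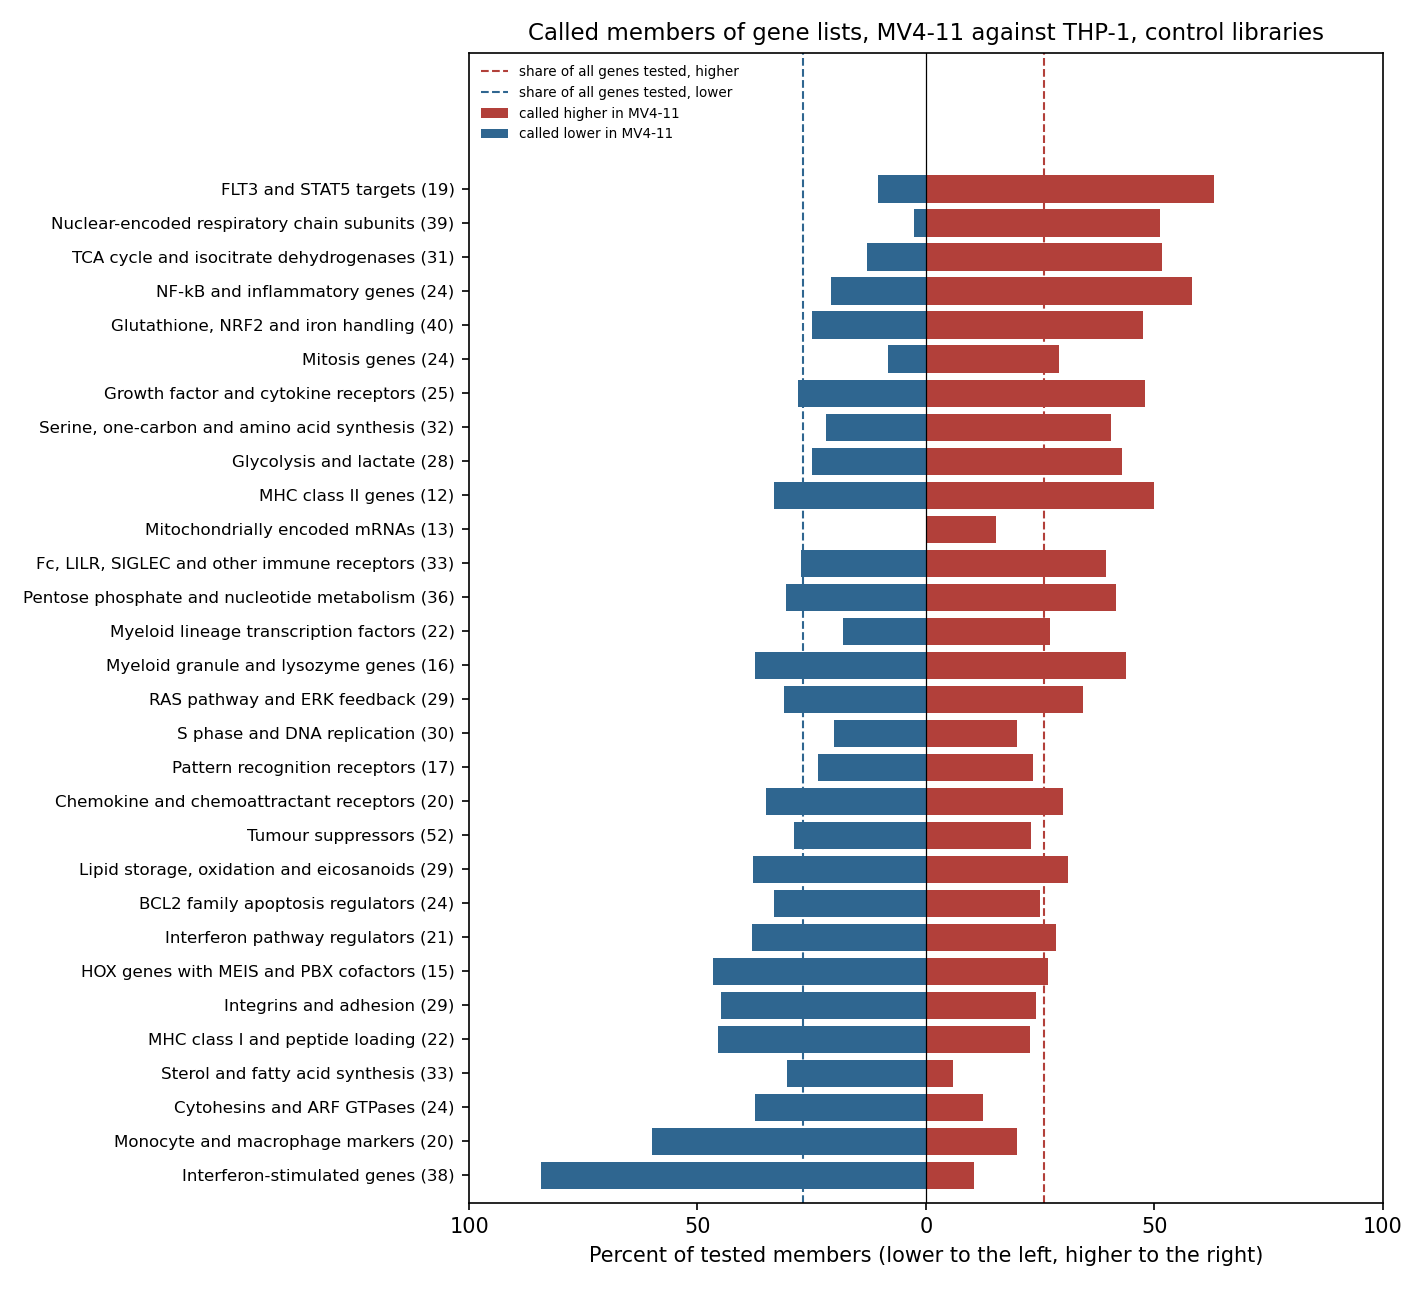
Percent of the tested members of gene lists with at least 12 tested members (1 such list is not drawn), called higher in MV4-11 (right) or lower (left), with the number tested in brackets and the shares of all genes tested as dashed lines at 25.9% and 26.8%. Interferon-stimulated genes reach farthest to the left, with 32 of 38 lower, and FLT3 and STAT5 targets had 12 of 19 higher.

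The genes with the largest differences belonged to no single class. Highest in MV4-11 beside CDKN2A, IGKC and IGKJ1 were the noncoding gene EPIST (log2 7.70, SE 0.48), RAB34, a small GTPase of cilia and lysosome positioning (7.60, SE 0.26), KCNE5, a potassium channel subunit (7.52, SE 0.23), the growth suppressor gene NDN (7.17, SE 0.38) and EMD, emerin of the inner nuclear membrane (6.86, SE 0.27). KCNE5 had 145, 181 and 159 FPKM in MV4-11, against 0.785, 0.651 and 1.23 FPKM in THP-1. Lowest were DMRTA2 (log2 -8.28, SE 0.35), SP9 (-7.62, SE 0.23) and ZNF521 (-7.59, SE 0.59), which encode transcription factors, the enzyme genes UGT3A2 (-8.06, SE 0.79) and PRSS12 (-7.81, SE 0.27), the opioid precursor gene PENK (-7.92, SE 0.84), MYL9, a myosin light chain (-7.64, SE 0.27), and the cancer-testis gene XAGE1A (-7.53, SE 0.38). PRSS12 had 0.0692, 0.17 and 0.158 FPKM in MV4-11, against 36.5, 28.4 and 26.5 FPKM in THP-1. EMD, FLNA and TKTL1 follow each other on the X chromosome; FLNA, the actin crosslinker filamin A, was chosen after its values were seen and had 196, 179 and 162 FPKM in MV4-11, against 6.63, 7.41 and 5.79 FPKM in THP-1 (log2 4.78). RPL10, a ribosomal protein gene next to EMD, gave a log2 of 0.65.

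Line-silent genes, under 0.1 FPKM in all 3 libraries of 1 line and at least 1 in all 3 of the other, numbered 192 in MV4-11 and 46 in THP-1. Of these, 166 and 36 were also under 0.1 FPKM in all 3 shCYTH4 libraries of that line. Among tested genes, silent neighbours formed 20 runs in MV4-11 and 3 in THP-1. The MV4-11 runs included HOXA5 with HOXA7, HOXA13 with its neighbour HOTTIP, the antiviral synthetase genes OAS1 with OAS3, the cadherin genes CDH2 with DSG2, and the protocadherin genes PCDHB5, PCDHB6 and PCDHB9. One of the THP-1 runs was KLHL9 with MTAP.

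The difference also followed chromosomes. The median log2 was 0.50 on chromosome 19, where 468 of 860 tested genes were higher and 78 lower, and 0.29 on chromosome 17, where 308 of 737 were higher and 101 lower. It was -0.46 on chromosome 1, with 160 of 1231 higher and 620 lower, and -0.41 on chromosome 6, with 115 of 563 higher and 267 lower. In the shCYTH4 libraries the medians of these 4 chromosomes were 0.48, 0.24, -0.46 and -0.36. In windows of 20 Mb, a size chosen after the values were seen, 115 of 149 windows with at least 20 tested genes had a median within 0.3 of 0. The first 20 Mb of chromosome 17, which hold CLEC10A, had a median of 1.12 over 205 genes, 168 of them higher and 7 lower. The first 20 Mb of chromosome 12, which hold GAPDH, TPI1, CCND2, TIGAR and NDUFA9, had 0.74 over 100 genes, and the first 20 Mb of chromosomes 20 and 6 had 0.95 and 0.90. The window from 60 to 80 Mb of chromosome 6 had -1.83 over 28 genes, though -1.01 in the shCYTH4 libraries, and that from 40 to 60 Mb of chromosome 1, which holds CDKN2C and GPX7, had -1.11 over 136 genes (-0.92 in the shCYTH4 libraries). On the same chromosome, the window from 140 to 160 Mb holds MNDA, FCGR1A, MCL1, IL6R and ADAR. Its median was -0.74 over 214 genes, 152 of them lower. The next window, from 160 to 180 Mb, which holds FCER1G and FCGR2A, had -0.48 over 95 genes, 47 of them lower. A gene in such a window shares its difference with its neighbours to that extent, and the part of position in the results above was not tested.

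**Figure D5:**
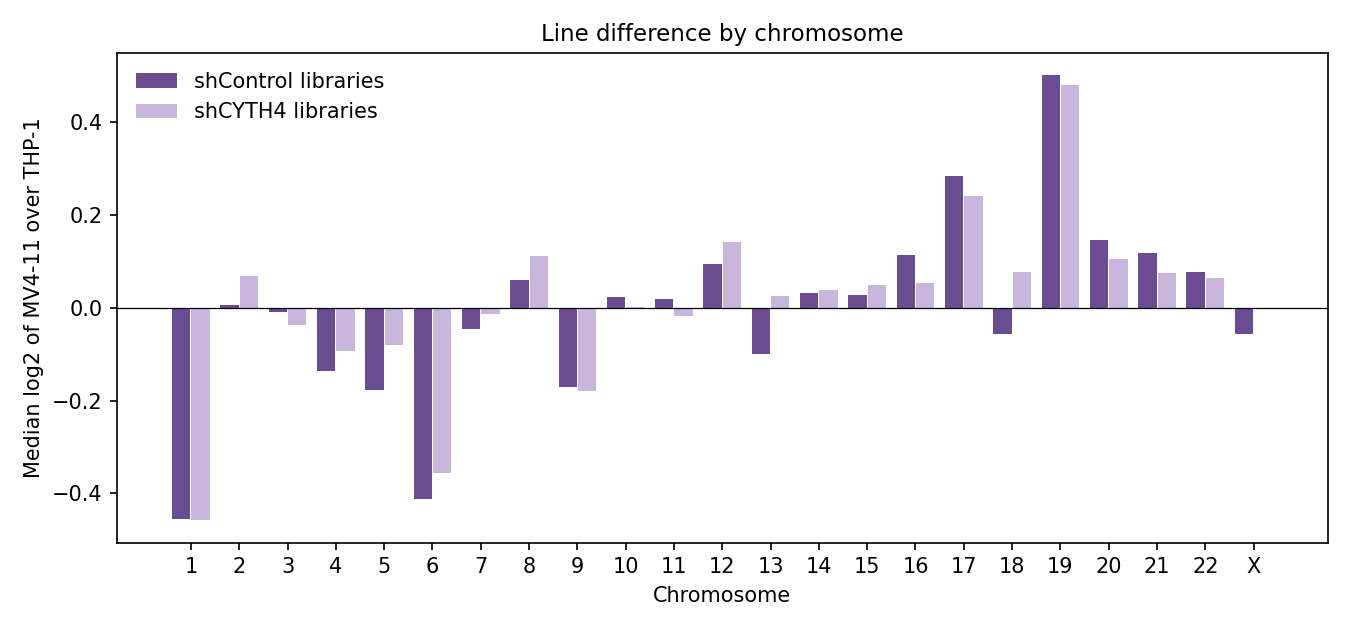
Median log2 of MV4-11 over THP-1 of the tested genes of each chromosome, in shControl libraries (dark bars) and in shCYTH4 libraries (light bars). Chromosome 19 stands highest at 0.50 and 0.48, and chromosomes 1 and 6 lowest at -0.46 and -0.41 in shControl libraries.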

How the data were processed

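Poly(A) RNA was extracted with TRIzol, made into dUTP libraries and sequenced in pairs of 150 bases on a NovaSeq, per the labels' protocols. The submitters' processing notes name fastp, StringTie and edgeR, with no version or role. Not given in the sources used here are the aligner, the genome build, the annotation and the strand setting. The deposited table holds, per the file headers, an estimated count and an FPKM per gene for 12 libraries, both made by the authors. Among low counts, multiples of 4 are more frequent than other values; a count was therefore not read as a fragment, and a floor of 12 counts per library (3 fragments of 4 counts) stands for a value of 0. Column names with SC were read as shControl.

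The estimated counts, which were whole numbers, were tested with edgeR 4.0.16 in R 4.3.3 (TMM scaling, robust quasi-likelihood fit, no covariates), with Benjamini-Hochberg adjustment over all 11534 genes and a threshold of 0.05. The common biological coefficient of variation was 0.1804, with 4 residual degrees of freedom. Levels are the authors' FPKM. The libraries of a line differed by more than sampling noise. Same-numbered libraries of the lines did not deviate together, so numbers were not used as pairs. On simulated data of 11534 genes, 100 were changed by a log2 of 1 and 100 by a log2 of 2. Of these, 83% and 97% were recovered, and 9.09% of calls were false at the threshold of 0.05. In the data 52.6% of genes were called, a far larger share, so these rates may not carry over. Alternatives used DESeq2 1.42.0 and limma 3.58.1.

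The gene lists, the members described and the tests were chosen with earlier results of these data known. Genes named were a set of key genes, the 8 largest differences in each direction with a mean of at least 10 FPKM in the higher line, and up to 4 called members of each list and direction with a log2 of at least 1 in size. Any other gene, such as a neighbour of CDKN2A, was named after its values were seen. Lists are described by counts and medians, with no set test. Results for some genes are not reported here. Promoters are from RefSeq, GRCh38.p14.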

Additional observations from a re-analysis of the deposited data

Results flagged for a closer look

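In a fit of all 12 libraries, added after the data were seen, the line difference in shControl libraries was compared with that in shCYTH4 libraries by an interaction of line and hairpin (edgeR's quasi-likelihood test, Benjamini-Hochberg adjustment). Of 11534 genes 101 passed, and of the 220 named genes tested 7 did. LYZ, lysozyme, was higher in MV4-11 by a log2 of 2.39 in shControl and 0.71 in shCYTH4 libraries, a difference of 1.66 (SE 0.17, adjusted p = 0.00019). KRT18, an epithelial keratin, was higher by 2.48 in shControl and 7.28 in shCYTH4 libraries, a difference of -4.81 (SE 0.53, adjusted p = 0.00039). EMD, emerin, gave 6.86 in shControl and 9.96 in shCYTH4 libraries, a difference of -3.11 (SE 0.54, adjusted p = 0.016). MTAP, the methionine salvage enzyme, gave 6.81 in shControl and 8.32 in shCYTH4 libraries, a difference of -1.53 (SE 0.29, adjusted p = 0.026); its MV4-11 means were 2.75 FPKM in shControl and 3.32 FPKM in shCYTH4 libraries, against 0.0235 and 0.00978 FPKM in THP-1, so this difference rests on THP-1 values near the floor and its size is not established. ACAP1, an ARF GTPase-activating protein, gave 4.03 in shControl and 5.57 in shCYTH4 libraries, a difference of -1.55 (SE 0.32, adjusted p = 0.036). HLA-DRB1, a class II beta chain, gave -1.82 in shControl and -3.04 in shCYTH4 libraries, a difference of 1.20 (SE 0.25, adjusted p = 0.036). FCGR1A, a high-affinity Fc receptor, gave -0.99 in shControl and 0.05 in shCYTH4 libraries, a difference of -1.06 (SE 0.21, adjusted p = 0.026). The differences of KRT18, EMD and ACAP1 also go with low THP-1 means, of 0.525, 0.251 and 0.371 FPKM in shControl and 0.0112, 0.0232 and 0.141 FPKM in shCYTH4 libraries, and their sizes are uncertain for the same reason.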

How the results depend on the processing

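Of the 220 named genes tested, 209 were called, and 198 of these kept their call and direction under each of the 18 alternatives that tested them; an FPKM of at least 5 left 166 of the 220 tested. The CD4 log2 (0.11) and the ASS1 log2 (0.22) turned to -0.0292 and -0.0290 without MV4-11 replicate 1, and were called in neither fit; ASS1 reached 0.478, and was called, without MV4-11 replicate 2. The count of 6072 calls was 6255 with DESeq2, 6173 with limma on log2(FPKM + 1), 6042 with upper quartile scaling and 6488 with quantile normalization. With no filter on low values 4834 genes were lower and 5482 calls had a log2 of at least 1 in size; with an FPKM of at least 5, where fewer genes are tested, 3533 were called, 1753 higher and 1780 lower, 1254 of them with such a log2. Leaving out 1 library gave 5314 to 6082 calls, 2580 to 2977 higher and 2683 to 3105 lower, and 2636 to 2835 with a log2 of at least 1 in size; in the shCYTH4 comparison it gave 4313 to 5851. With the replicate number as a block 5460 genes were called in shControl and 4949 in shCYTH4 libraries. Deviations of same-numbered libraries correlated at -0.311, -0.075 and 0.04, and those of differently numbered ones at -0.315 to 0.301. Deviations from a mean of 3 libraries constrain each other, so these values cannot exclude that same-numbered libraries were handled together. Under 0.5 in place of 0.1 FPKM, 484 genes were silent in MV4-11 and 165 in THP-1. With no filter the chromosome medians were -0.57 (chromosome 1), -0.56 (chromosome 6), 0.21 (chromosome 17) and 0.37 (chromosome 19). Limma on log2(FPKM + 1) gave 0.21 for chromosome 17 and 0.42 for 19. Chromosome 17 also gave 0.22 with upper quartile scaling, 0.37 with quantile normalization, 0.20 with an FPKM of at least 5, and 0.24 to 0.33 when 1 library was left out. The cause of these shifts was not tested. With 3 libraries of 1 cell line in each group, differences between lines and between their library batches cannot be told apart, and genes near the floor are known only as bounds.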
